A study of Mus musculus with 16 samples.

Results

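The 10 genes described here are mouse genes of major histocompatibility complex (MHC) class II antigen presentation and of Langerhans cells: H2-Aa, H2-Ab1, H2-Eb1, Cd74, H2-DMa, H2-DMb1, Ciita, Cd207, Epcam and Itgax. They were chosen by name, as the rows of the count table that carry these symbols. All 10 were among its 26357 genes, and 10 of 10 passed the filter on low counts, which kept 14671 genes for testing. Total RNA was sequenced from 16 mouse samples of a study of psoriasiform dermatitis, a skin inflammation that resembles psoriasis, driven by the cytokine interleukin-23 (IL-23). The agent was IL-23 or its vehicle, and each was combined with a drug vehicle given by mouth (per os, PO, called oral) or into the peritoneal cavity (intraperitoneal, IP), which makes 4 groups of 4 libraries. In each of the 4 groups the dosed drug vehicle held 0 mpk of compound, so vehicle here names both the control agent and the dosed carrier, and no group without a dosed carrier was used. The labels give no strain, sex, age, tissue or day of harvest. Whether each library came from a separate animal is not stated either, so p-values measure the spread between these libraries.

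MHC class II molecules display peptides from taken-up proteins to CD4 T cells. The alpha and beta chains (H2-Aa with H2-Ab1 for I-A, H2-Eb1 for the beta chain of I-E) assemble with the invariant chain, encoded by Cd74, which blocks the peptide groove and guides the complex to endosomes, where H2-DM (H2-DMa with H2-DMb1) exchanges the invariant chain remnant for peptide. Their genes share a promoter element, the X box with a nearby Y box, on which RFX and NF-Y factors recruit the co-activator CIITA, itself induced by interferon gamma. Langerhans cells are the antigen-presenting cells of the epidermis and carry class II, the lectin langerin (Cd207), the adhesion molecule EpCAM and CD11c (Itgax), but EpCAM is also made by epithelial cells and CD11c by other dendritic cells and some macrophages.

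Upstream sequences are shown because a search for the letters of this shared element matched the windows of some members and not of others. Windows of 7 of the 10 members from the RefSeq promoter table (build GRCm38.p6) are described, and those of H2-Ab1, Cd74 and Ciita are not. A window runs from 250 bases before to 50 bases after the start of transcription. Each window was searched on both strands for the 14-letter consensus of the class II X box with up to 2 mismatches at its 12 constrained letters, and for the Y-box core CCAAT, which reads ATTGG on the other strand. The 250 bases before the start are printed 5′ to 3′ on the gene's strand, with capitals marking the X box and the ATTGG that follows it, or a lone CCAAT or ATTGG where there was no such pair. They are H2-DMb1 at chr17:34152941-34153190 (plus strand), H2-Eb1 at chr17:34305617-34305866 (plus strand), H2-Aa at chr17:34287824-34288073 (minus strand) and Cd207 at chr6:83677858-83678107 (minus strand).
H2-DMb1: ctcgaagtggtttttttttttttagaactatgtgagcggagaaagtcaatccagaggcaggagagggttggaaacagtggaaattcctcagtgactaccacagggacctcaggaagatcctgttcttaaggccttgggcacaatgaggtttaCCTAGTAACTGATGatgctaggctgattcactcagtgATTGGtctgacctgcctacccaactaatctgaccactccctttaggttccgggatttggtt
H2-Eb1: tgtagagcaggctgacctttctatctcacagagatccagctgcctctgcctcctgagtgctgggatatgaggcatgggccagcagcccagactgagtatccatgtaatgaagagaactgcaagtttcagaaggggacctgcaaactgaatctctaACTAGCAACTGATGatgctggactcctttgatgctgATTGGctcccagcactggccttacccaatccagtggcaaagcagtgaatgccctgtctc
H2-Aa: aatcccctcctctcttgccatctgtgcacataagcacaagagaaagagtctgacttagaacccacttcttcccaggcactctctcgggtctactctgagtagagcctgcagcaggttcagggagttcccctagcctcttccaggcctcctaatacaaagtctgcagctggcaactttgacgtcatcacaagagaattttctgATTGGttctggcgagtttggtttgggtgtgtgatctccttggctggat
Cd207: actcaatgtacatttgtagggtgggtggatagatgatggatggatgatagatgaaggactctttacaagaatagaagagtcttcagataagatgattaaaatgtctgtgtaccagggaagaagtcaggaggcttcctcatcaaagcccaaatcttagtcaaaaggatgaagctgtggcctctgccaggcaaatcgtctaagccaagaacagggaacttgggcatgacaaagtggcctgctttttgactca
In H2-DMb1 the X box CCTAGTAACTGATG had 0 mismatches, began 98 bases before the start and was followed after 23 bases by ATTGG. In H2-Eb1 the X box ACTAGCAACTGATG had 1 mismatch, began 95 bases before the start and was followed after 22 bases by ATTGG. An X box followed by ATTGG at a spacing of 14 to 26 bases stood in 51 of 32851 windows (0.155%). Any CCAAT, with or without an X box, stood in 37.4%, and any X box, with or without CCAAT, in 8.47%. The window of H2-Aa held ATTGG but no X box match, and that of Cd207 held neither. The 2 windows of H2-DMa and those of Epcam and Itgax held no such pair. The H2-DMa windows (chr17:34122582-34122881 and chr17:34125268-34125567) lie inside the span of the gene (chr17:34119693-34139101). Other possible starts of H2-DMa were not searched. A match describes letters only, and the absence of one says no more than that these letters are not in the window.

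Library totals ran from 6381990 to 14432930 counts. Levels are CPM, counts scaled to library size with TMM factors. Though no tissue is labelled, the epidermal keratin Krt14 stood at 5429 to 15751 CPM in every library, and Ptprc (CD45, on leukocytes) at 13.8 to 174 CPM. IL-23 intraperitoneal library 28 stood apart from the rest: on the second principal component (7.41% of variance) it lay at -62.5, the other 15 libraries at -14.1 to 20.9. In this library the summed level of 13 macrophage genes was 2008 CPM, against 513 to 800 CPM in the 7 other IL-23 libraries, and 7 monocyte genes summed to 657 against 111 to 207 CPM. The 10 class II chain and partner genes summed there to 1613 CPM, against 715 to 1343 CPM in the other IL-23 libraries. Its summed keratinocyte level was the lowest of the IL-23 libraries, 37482 CPM against 47520 to 67775. Intraperitoneal changes of the 10 genes are therefore given with and without it, and its part in them beyond that comparison was not tested.

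IL-23 against vehicle was tested within each route with edgeR's quasi-likelihood test, adjusted over all 14671 genes by the Benjamini-Hochberg method, and a gene was called at an adjusted p under 0.05. With oral dosing 10 of 10 members were higher with IL-23, by 0.62 to 1.71 on the log2 scale (median 0.99), whereas 63.3% of all genes were called in either direction and 29.2% were called higher (median of all genes -0.059). With intraperitoneal dosing 9 of 10 were called higher, with changes of 0.45 to 1.18 (median 0.82), against 61.7% called in either direction and 30.8% called higher among all genes (median -0.018). The member not called was Cd207. With oral dosing the rises ran from 1.54-fold for Cd74 and 1.56-fold for H2-Aa to 3.26-fold for Itgax. Over both routes together all 10 were called, against 73.6% of all genes called in either direction and 34.9% called higher, and this held without library 28, when 74.4% of all genes were called and 36.1% called higher. In bulk RNA, fewer cells of a type and less RNA per cell cannot be told apart, nor can more of each.

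**Figure D1:**
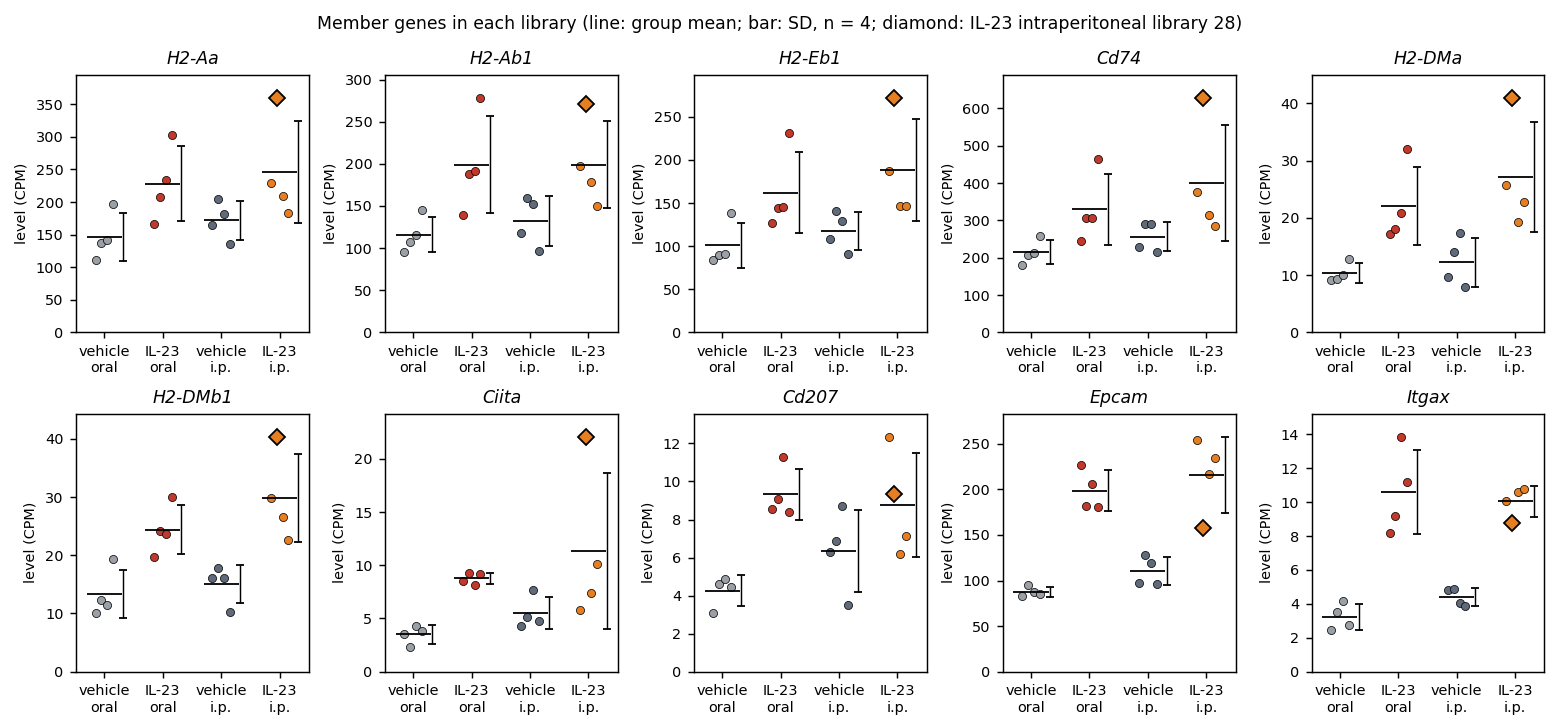
Level of each member gene (vertical axis, CPM) in each of the 16 libraries, by agent and route. Points are libraries, lines are group means and bars are SD (n = 4), and the diamond is IL-23 intraperitoneal library 28, which holds the highest H2-Aa (360 CPM), Cd74 (628 CPM) and Ciita (22.03 CPM) but the lowest Epcam (157 CPM) of the IL-23 libraries.

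In the values that follow, vehicle oral libraries are listed in the order 4, 27, 33 and 51, IL-23 oral libraries as 14, 24, 26 and 68, vehicle intraperitoneal libraries as 49, 50, 59 and 67, and IL-23 intraperitoneal libraries as 25, 28, 31 and 61. H2-Ab1 (gene ID 14961, chr17:34263227-34269418), the beta chain of I-A, stood at 95.6, 107, 116 and 145 CPM in vehicle oral and at 139, 188, 191 and 278 CPM in IL-23 oral libraries. With intraperitoneal dosing H2-Ab1 stood at 118, 160, 153 and 96.6 CPM with vehicle and at 198, 271, 178 and 150 CPM with IL-23. The groups overlapped narrowly in both routes: oral IL-23 library 14 lay below vehicle library 51, and intraperitoneal IL-23 library 61 below vehicle libraries 50 and 59. The log2 change of H2-Ab1 was 0.78 ± 0.21 (SE; 1.72-fold, adjusted p = 0.00401) oral and 0.60 ± 0.21 (adjusted p = 0.0217) intraperitoneal. Without library 28 the intraperitoneal change was 0.43 (adjusted p = 0.0706) and was not called.

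H2-Aa (gene ID 14960, chr17:34282744-34287823), the alpha chain that pairs with H2-Ab1, stood at 111, 137, 142 and 198 CPM in vehicle oral and at 167, 208, 234 and 303 CPM in IL-23 oral libraries. With intraperitoneal dosing H2-Aa stood at 164, 205, 182 and 135 CPM with vehicle and at 229, 360, 210 and 184 CPM with IL-23. Again the lowest IL-23 library of each route lay below the highest vehicle library. H2-Aa changed by 0.64 ± 0.22 (SE; adjusted p = 0.0167) oral and 0.52 ± 0.22 on the log2 scale (adjusted p = 0.0461) intraperitoneal, the latter close to the threshold. This intraperitoneal change fell to 0.29 (adjusted p = 0.187) without library 28, which moves it by more than 1.5 times.

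H2-Eb1 (gene ID 14969, chr17:34305867-34316674), the I-E beta chain, stood at 83.6, 89.5, 91.4 and 139 CPM in vehicle oral and at 127, 144, 146 and 232 CPM in IL-23 oral libraries. Vehicle library 51 lay apart from its 3 group mates and reached above IL-23 library 14. With intraperitoneal dosing H2-Eb1 stood at 109, 141, 130 and 90.6 CPM with vehicle and at 188, 272, 147 and 147 CPM with IL-23, with no overlap. Its log2 change was 0.69 ± 0.22 (SE; adjusted p = 0.0136) oral and 0.68 ± 0.22 (adjusted p = 0.0142) intraperitoneal, and 0.47 (adjusted p = 0.0535) intraperitoneal without library 28.

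Cd74 (gene ID 16149), the invariant chain, stood at 180, 207, 213 and 258 CPM in vehicle oral and at 244, 305, 305 and 465 CPM in IL-23 oral libraries. With intraperitoneal dosing Cd74 stood at 230, 290, 289 and 217 CPM with vehicle and at 375, 628, 314 and 286 CPM with IL-23. Oral IL-23 library 14 lay below vehicle library 51, and intraperitoneal IL-23 library 61 below vehicle libraries 50 and 59, while library 28 stood far above the others of its group. Cd74 changed on the log2 scale by 0.62 ± 0.22 (SE; 1.54-fold, adjusted p = 0.0224) oral and 0.65 ± 0.22 (1.56-fold, adjusted p = 0.0187) intraperitoneal. It was 0.36 (adjusted p = 0.0851) intraperitoneal without library 28, smaller by over 1.5 times.

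The oral calls of H2-Aa, H2-Eb1 and Cd74 each rested on IL-23 library 68, the highest oral library for all 3. Without it their log2 changes were 0.47 (adjusted p = 0.0736), 0.46 (adjusted p = 0.0729) and 0.41 (adjusted p = 0.110). For H2-Aa and Cd74 the oral call was also lost without vehicle library 4 (adjusted p = 0.0583 and 0.0652). For the mean over both routes the changes were 0.58 ± 0.15 for H2-Aa, 0.69 ± 0.15 for H2-Ab1, 0.68 ± 0.16 for H2-Eb1 and 0.63 ± 0.16 for Cd74 (SE), with adjusted p of 0.00264, 0.000514, 0.000922 and 0.00164. These 4 calls held without any single library.

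Both chains of the peptide exchange factor H2-DM rose in both routes. H2-DMa (gene ID 14998, chr17:34119693-34139101) stood at 9.22, 9.38, 9.999 and 12.9 CPM in vehicle oral and at 17.2, 18.0, 20.9 and 32.01 CPM in IL-23 oral libraries. With intraperitoneal dosing H2-DMa stood at 9.68, 14.0, 17.3 and 7.91 CPM with vehicle and at 25.8, 41.0, 19.3 and 22.7 CPM with IL-23. In both routes every IL-23 library lay above every vehicle library, a pattern that 27.9% of all genes showed oral and 25.1% intraperitoneal. The log2 change of H2-DMa was 1.097 ± 0.269 (SE; 2.14-fold, adjusted p = 0.00196) oral and 1.16 ± 0.27 (2.23-fold, adjusted p = 0.00125) intraperitoneal. Without library 28 the latter was 0.90 (adjusted p = 0.00399) and still called.

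H2-DMb1 (gene ID 14999, chr17:34153191-34160229), the partner chain, stood at 10.02, 12.3, 11.5 and 19.3 CPM in vehicle oral and at 19.7, 24.2, 23.7 and 30.0 CPM in IL-23 oral libraries. With intraperitoneal dosing H2-DMb1 stood at 16.1, 17.8, 16.1 and 10.3 CPM with vehicle and at 29.8, 40.3, 26.6 and 22.6 CPM with IL-23. It did not overlap in either route, and vehicle library 51 came within 1 CPM of the lowest oral IL-23 library. H2-DMb1 rose on the log2 scale by 0.89 ± 0.22 (SE; adjusted p = 0.00202) oral and 0.99 ± 0.22 (adjusted p = 0.000877) intraperitoneal, and 0.82 (adjusted p = 0.00251) intraperitoneal without library 28. The near-identical neighbour H2-DMb2 stood at 0.678 ± 0.286 CPM with vehicle and 1.45 ± 0.467 CPM with IL-23 (SD, n = 8), and reads of the 2 genes may have been split between them by the authors' counting, so each value is uncertain.

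Ciita (gene ID 12265, chr16:10480014-10531064), the co-activator of the class II genes, was the lowest of the 10 per length of transcript. It stood at 3.50, 2.31, 4.33 and 3.85 CPM in vehicle oral and at 8.54, 9.30, 8.12 and 9.15 CPM in IL-23 oral libraries. The oral groups lay far apart, and the spread within IL-23 oral (SD 0.546) was small. With intraperitoneal dosing Ciita stood at 4.32, 5.15, 7.70 and 4.80 CPM with vehicle and at 5.84, 22.03, 7.37 and 10.1 CPM with IL-23. Here libraries 25 and 31 lay below vehicle library 59, and library 28 held more than any other library. On the log2 scale Ciita rose by 1.30 ± 0.34 (SE; 2.47-fold, adjusted p = 0.00298) oral and 1.06 ± 0.32 (2.08-fold, adjusted p = 0.00963) intraperitoneal. Without library 28 the intraperitoneal change was 0.51 (adjusted p = 0.0673) and was not called, while the oral change was 1.33 (adjusted p = 4.15e-05).

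Among the Langerhans cell genes, langerin was called with oral but not with intraperitoneal dosing. Cd207 (gene ID 246278, chr6:83671207-83677857) stood at 3.10, 4.63, 4.87 and 4.46 CPM in vehicle oral and at 8.54, 9.06, 11.3 and 8.40 CPM in IL-23 oral libraries. With intraperitoneal dosing Cd207 stood at 6.28, 6.86, 8.74 and 3.50 CPM with vehicle and at 12.3, 9.34, 6.18 and 7.13 CPM with IL-23. The oral groups did not overlap, whereas the intraperitoneal groups interleaved, with IL-23 library 31 below 3 of the 4 vehicle libraries. The log2 change of Cd207 was 1.13 ± 0.26 (SE; 2.19-fold, adjusted p = 0.00119) oral and 0.45 ± 0.25 (1.37-fold, adjusted p = 0.133) intraperitoneal. The intraperitoneal change without library 28 was much the same, 0.43 (adjusted p = 0.185). Without vehicle library 59, the highest of its group, the intraperitoneal change was 0.65 (adjusted p = 0.0450) and was called. The mean over both routes was 0.79 ± 0.18 (adjusted p = 0.000861).

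Epcam (gene ID 17075, chr17:87635979-87651127) stood at 82.5, 95.02, 87.6 and 85.4 CPM in vehicle oral and at 227, 182, 206 and 180 CPM in IL-23 oral libraries. With intraperitoneal dosing Epcam stood at 97.8, 128, 119 and 96.5 CPM with vehicle and at 254, 157, 216 and 234 CPM with IL-23. Neither route overlapped, and library 28, the highest for most class II genes, was the lowest IL-23 library for Epcam. On the log2 scale Epcam rose by 1.18 ± 0.13 (SE; 2.27-fold, adjusted p = 9.99e-07) oral and 0.97 ± 0.13 (1.95-fold, adjusted p = 9.20e-06) intraperitoneal, the smallest standard errors of the 10 genes. The basal keratin Krt14 rose beside it, by 0.97 oral (adjusted p = 3.60e-05) and 0.80 intraperitoneal (adjusted p = 0.000243), while Krt5, its partner, changed by 0.27 oral (adjusted p = 0.0754) and rose by 0.33 intraperitoneal (adjusted p = 0.0365). Without library 28 Krt14 rose by 0.90 and Krt5 by 0.42 intraperitoneal, and Krt5 also passed the test oral (0.30, adjusted p = 0.0399). Summed over 11 keratinocyte genes, levels were 37482 to 67775 CPM with IL-23 and 25216 to 33312 CPM with vehicle, and the part of epithelium in the Epcam result was not tested.

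Itgax (gene ID 16411, chr7:128129526-128150657) stood at 2.47, 3.53, 4.20 and 2.74 CPM in vehicle oral and at 8.21, 9.18, 13.8 and 11.2 CPM in IL-23 oral libraries. With intraperitoneal dosing Itgax stood at 4.84, 4.88, 4.05 and 3.90 CPM with vehicle and at 10.1, 8.77, 10.6 and 10.8 CPM with IL-23. The groups were widely separated in both routes, and library 28 was not high. Itgax rose on the log2 scale by 1.71 ± 0.20 (SE; 3.26-fold, adjusted p = 1.70e-06) oral and 1.18 ± 0.19 (2.27-fold, adjusted p = 6.84e-05) intraperitoneal.

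**Figure D2:**
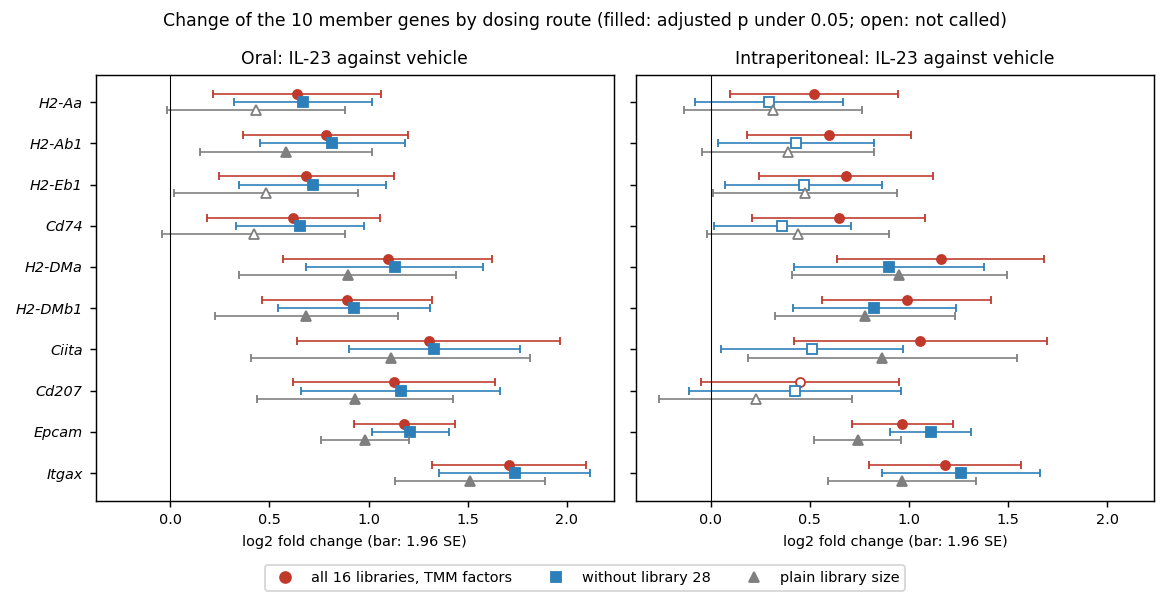
Log2 fold change of each member gene (horizontal axis, IL-23 against vehicle) with oral (left) and intraperitoneal (right) dosing, from all 16 libraries, without library 28 and with plain library sizes. Bars are a normal approximation to the 95% interval, made from the standard error and narrower than the quasi-likelihood test allows. For H2-Eb1 oral with plain library sizes the bar ran from 0.017 to 0.946, though the unadjusted quasi-likelihood p was 0.0581. Filled symbols mark an adjusted p under 0.05. Without library 28, 4 of 10 members remained called with intraperitoneal dosing.

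Taking library 28 out left 4 of 10 members called with intraperitoneal dosing, H2-DMa (0.90), H2-DMb1 (0.82), Epcam (1.11) and Itgax (1.26), when 60.9% of all genes were called in either direction and 30.5% higher. The 5 calls lost were those of H2-Aa, H2-Ab1, H2-Eb1, Cd74 and Ciita, all of which kept a positive change. With all 16 libraries, the 4 IL-23 libraries lay above the 4 vehicle libraries for 6 of 10 members with oral dosing (H2-DMa, H2-DMb1, Ciita, Cd207, Epcam and Itgax; 27.9% of all genes) and for 5 of 10 with intraperitoneal dosing (H2-Eb1, H2-DMa, H2-DMb1, Epcam and Itgax; 25.1% of all genes). With plain library sizes in place of TMM factors the median of all genes moved to -0.26 oral and -0.23 intraperitoneal, and 31.9% rather than 47.4% of the genes called over both routes were higher. All 10 members kept a positive change under that scaling, but 7 of 10 were called oral (not H2-Aa, H2-Eb1 or Cd74) and 5 of 10 intraperitoneal (not H2-Aa, H2-Ab1, H2-Eb1, Cd74 or Cd207). Under it 64.7% of all genes were called oral (20.1% higher) and 62.2% intraperitoneal (19.6% higher), so 5 of 10 called lies below the share of all genes called in either direction and above that called higher. Over both routes 10 of 10 stayed called, against 75.2% of all genes called and 24% called higher.

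Whether the IL-23 effect differed between routes was tested as the intraperitoneal minus the oral change. No member was called, and edgeR called 0 of 14671 genes (0% of all genes; 796 genes had an unadjusted p under 0.05, and DESeq2 called 1 gene and limma-voom 0). The difference was -0.68 ± 0.36 for Cd207 and -0.53 ± 0.28 for Itgax (SE; adjusted p = 0.875 for each), the widest among the members. For the other members it ran from -0.25 (Ciita) to 0.10 (H2-DMb1). Without library 28 the difference for Ciita was -0.82 ± 0.32 (unadjusted p = 0.0199, adjusted p = 0.977). The Cd207 response, called in one route only, therefore did not pass the test of a difference between routes.

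Compared per kilobase of exon, the order of the 10 genes by mean level was the same in each of the 4 groups: Cd74, H2-Aa, H2-Ab1, H2-Eb1, Epcam, H2-DMb1, H2-DMa, Cd207, Itgax and Ciita. In vehicle oral libraries the level was 152 ± 22.9 CPM per kilobase for Cd74, 95.6 ± 17.3 for H2-Ab1, 9.45 ± 2.93 for H2-DMb1, 2.80 ± 0.521 for Cd207 and 0.426 ± 0.105 for Ciita (SD, n = 4). In IL-23 oral libraries the same levels were 233 ± 67.0, 164 ± 47.7, 17.4 ± 3.02, 6.13 ± 0.883 and 1.07 ± 0.0664 CPM per kilobase. Neighbours from Cd74 down to H2-Eb1 overlapped in range in all 4 groups, and H2-Eb1 overlapped Epcam in 3 of them. H2-DMb1 lay below Epcam, and Itgax below Cd207, without overlap in any group. H2-DMa was separate from Cd207 only in vehicle oral libraries, and Itgax from Ciita only in the oral groups. Exon lengths were the union over coding transcripts of the annotation, so the order depends on which transcripts were expressed.

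Ratios of 2 members within a library do not depend on the scaling between libraries and show whether members moved by unequal amounts. Of 33 exact permutation tests (11 pairs, 2-sided, each for oral, intraperitoneal and both routes together), 0 passed an adjusted p of 0.05. The closest was H2-DMa over H2-Ab1, whose log2 ratio of counts lay at -3.61 to -3.14 in the 8 vehicle libraries and -3.38 to -2.72 in the 8 IL-23 libraries. That ratio was higher by 0.43 with IL-23 over both routes (exact p = 0.00163, adjusted p = 0.0539), by 0.30 oral and by 0.57 intraperitoneal (exact p = 0.0571 for each). Without library 28 it was 0.41 over both routes (exact p = 0.00286) and 0.51 intraperitoneal. Next came Itgax over Cd207, higher by 0.63 with IL-23 over both routes (exact p = 0.00571, adjusted p = 0.0943). Within 1 route the smallest exact p that 4 against 4 libraries allow is 0.0286, so no test within a route could have passed the adjustment alone.

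**Figure D3:**
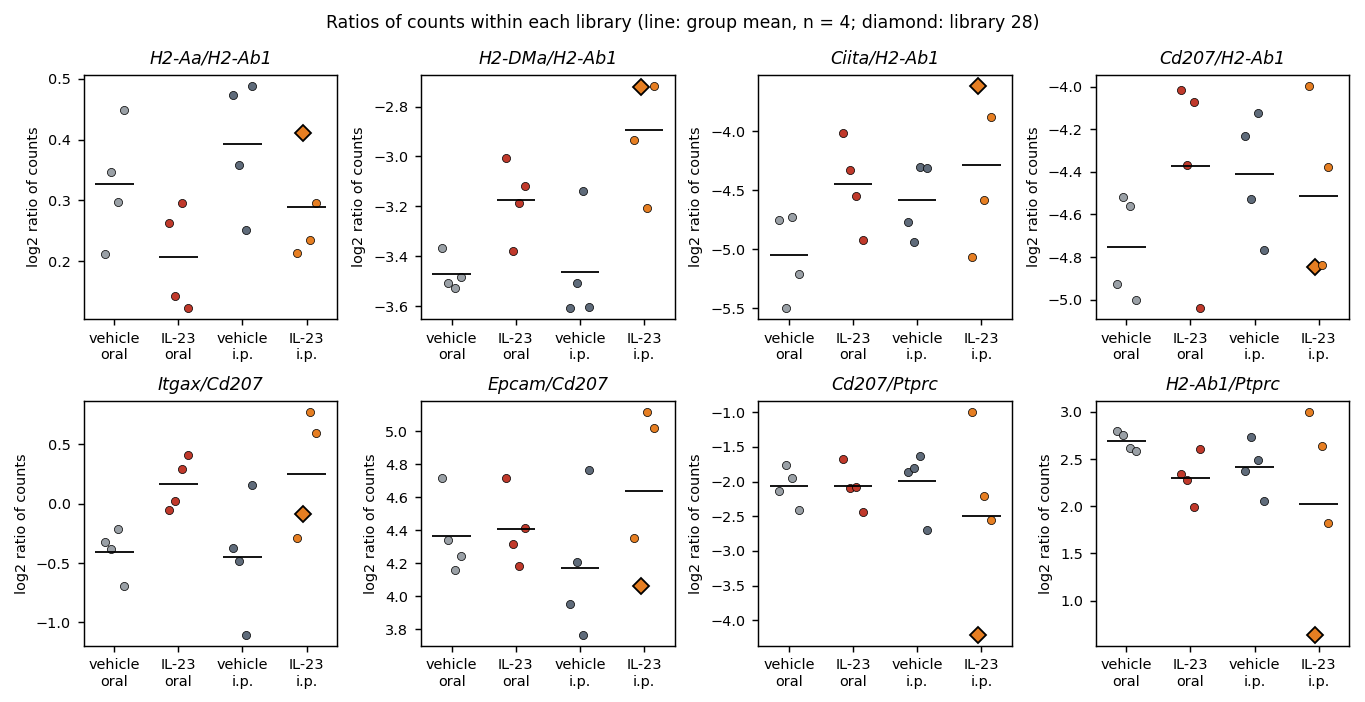
Log2 ratio of the counts of 2 genes (vertical axis) in each of the 16 libraries, by agent and route, for 8 of the 11 pairs. Points are libraries, lines are group means (n = 4) and the diamond is library 28; H2-DMa over H2-Ab1 shows the 8 IL-23 libraries at -3.38 to -2.72 and the 8 vehicle libraries at -3.61 to -3.14.

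No ratio among the classical chains and the invariant chain passed the adjustment, which does not show that their proportions stayed the same. The log2 ratio of H2-Eb1 to H2-Ab1 changed by -0.0088 over both routes (exact p = 0.877), and that of H2-Aa to H2-Ab1 by -0.11 (exact p = 0.0351, adjusted p = 0.232). Cd74 over H2-Ab1 changed by -0.16 oral (exact p = 0.0286, adjusted p = 0.232) and by -0.0034 intraperitoneal (exact p = 1), or -0.084 without library 28. The oral ratios of Cd74 to H2-Ab1 did not overlap, at 0.836 to 0.948 with vehicle and 0.676 to 0.810 with IL-23. Over both routes that ratio changed by -0.084 (exact p = 0.183), and by -0.12 without library 28 (exact p = 0.0131, adjusted p = 0.144). H2-Aa over H2-Ab1 changed by -0.13 over both routes without library 28 (exact p = 0.0180, adjusted p = 0.148). Ciita over H2-Ab1 was higher by 0.45 with IL-23 over both routes (exact p = 0.0694, adjusted p = 0.254), and by 0.34 without library 28. Within routes it was higher by 0.60 oral and 0.30 intraperitoneal, the latter 0.073 without library 28. Langerin passed no test against class II: Cd207 over H2-Ab1 differed by 0.38 oral and -0.10 intraperitoneal (0.0094 without library 28), with 0.14 over both routes (exact p = 0.463).

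Set against Ptprc, the pan-leukocyte marker, neither langerin nor class II passed a test of a change. Cd207 over Ptprc changed by -0.0056 oral (exact p = 0.971), with vehicle libraries at -2.42 to -1.76 and IL-23 libraries at -2.44 to -1.67. H2-Ab1 over Ptprc changed by -0.38 oral (exact p = 0.0571, adjusted p = 0.236), with vehicle libraries at 2.59 to 2.79 and IL-23 libraries at 1.99 to 2.60. With intraperitoneal dosing both ratios turned on library 28, in which Ptprc stood at 174 CPM: Cd207 over Ptprc changed by -0.49 with it and by 0.080 without it, and H2-Ab1 over Ptprc by -0.39 with it and by 0.070 without it. Ptprc itself rose by 1.15 ± 0.46 oral (SE; adjusted p = 0.0388) and 1.49 ± 0.45 intraperitoneal (adjusted p = 0.00895), the latter 0.40 (adjusted p = 0.0903) without library 28.

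Within groups, the class II genes varied together from library to library. After the group mean was taken from each log2 value, Pearson's r over the 16 libraries was 0.79 to 0.96 for the 15 pairs among H2-Aa, H2-Ab1, H2-Eb1, Cd74, H2-DMa and H2-DMb1, and Spearman's rho 0.78 to 0.95. For all 15 the permutation p adjusted over the 45 pairs of members was at most 0.00255. Without the 2 farthest libraries r was 0.71 to 0.97, and without library 28 it was 0.73 to 0.97. The genes of a library share its depth and scaling, whose part in these values was not tested.

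Ciita had lower correlations with the genes it controls, a description with no test of the difference. Its r with those 6 genes was 0.37 to 0.62 and its rho 0.34 to 0.52 (0 of 6 pairs passed the adjustment), and without library 28 r was 0.02 to 0.40. Cd207 had r of 0.42 to 0.57 and rho of 0.50 to 0.63 with the 6 class II genes (0 of 6 passed), and 0.45 to 0.59 without library 28. For Itgax r was -0.03 to 0.15 and rho -0.01 to 0.23, with r of 0.12 to 0.37 without library 28. For Epcam r was -0.45 to -0.18 and rho -0.21 to 0.04, with r turning to 0.05 to 0.32 without library 28, so the negative values rest on that library. Among Cd207, Epcam and Itgax themselves r was 0.24 to 0.35 (rho 0.24 to 0.41), and 0 of 3 pairs passed. Without library 28 these r were 0.09 to 0.62, that of Cd207 with Epcam moving from 0.35 to 0.62 and that of Epcam with Itgax from 0.24 to 0.09.

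**Figure D4:**
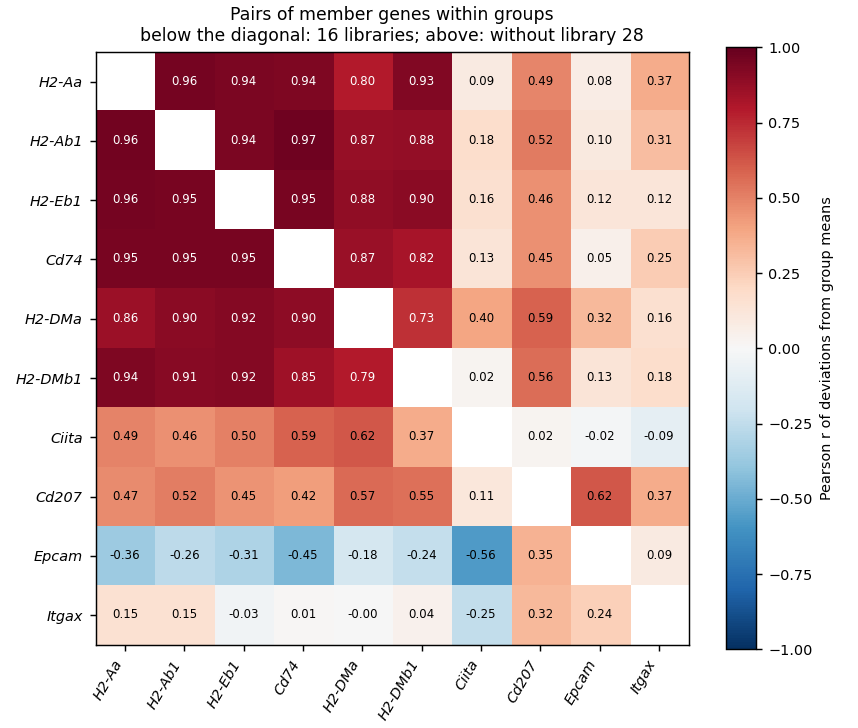
Pearson's r between pairs of member genes (rows and columns), computed on deviations of log2 CPM from the group means, with all 16 libraries below the diagonal and 15 libraries, without library 28, above it. The 6 class II chain, invariant chain and H2-DM genes form a block at 0.73 to 0.97, and Ciita, Cd207, Epcam and Itgax lie outside it.

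By the same measure, given as a description with libraries sharing depth and scaling, the 5 genes most like H2-Ab1 outside the 10 were Kcnk13 (r = 0.90), Naip5 (0.89), Susd3 (0.84), P2ry10 (0.83) and Cd69 (0.83) over 16 libraries. Without library 28 their r was 0.80 to 0.90. The 5 most like Cd207 were Tnfaip2 (r = 0.82), Rbm4 (0.82), Srbd1 (0.80), Cd44 (0.79) and Tpm4 (0.79), with 0.79 to 0.85 without library 28.

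The rest of the class II pathway was read from lists of genes, as the mean over both routes. Over both routes 73.6% of all genes were called and 34.9% were called higher. Of 10 class II chain and partner genes, 7 were tested and all 7 rose (median 0.69), 6 of them members and the last H2-DMb2 (1.11 ± 0.27 SE, adjusted p = 0.00138). The other 3 stayed under the filter: H2-Eb2 had 32 counts, H2-Oa 14 and H2-Ob 82 over the 16 libraries. Of 8 transcription factors of class II genes, 3 rose, 2 fell and 3 were not called (median -0.0056), a share called below that of all genes. Besides Ciita the NF-Y subunits Nfyb (0.36) and Nfyc (0.45) rose, whereas Rfx5 (-0.43) and Rfxank (-0.26), subunits of the RFX complex, fell. The factor Creb1, the most abundant, stood at 85.2 ± 10.02 CPM with vehicle and 80.9 ± 5.84 CPM with IL-23 (SD, n = 8; adjusted p = 0.300). With plain library sizes 2 of the 8 were higher and 4 lower, Nfyb no longer called, and without library 28 Rfxank was no longer called (-0.21, adjusted p = 0.0664).

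Of 9 genes of peptide loading and class II turnover, 6 rose, 1 fell and 2 were not called (median 0.74, against -0.043 for all genes). The share called was near the 73.6% of all genes called over both routes, of which 34.9% of all genes were called higher. Ctss, the protease that trims the invariant chain in antigen-presenting cells, rose from 68.5 ± 17.1 to 176 ± 167 CPM (log2 change 1.32 ± 0.32 SE, adjusted p = 0.00131), and by 0.81 without library 28. Ctsl, which does so in thymic epithelium and is widely expressed, rose from 289 ± 17.8 to 716 ± 112 CPM, and Ctsd from 963 ± 99.6 to 1469.8 ± 233 CPM. March8, a ubiquitin ligase that lowers surface class II, fell by 0.55 on the log2 scale, from 102 ± 7.71 to 70.3 ± 5.599 CPM. Of 9 tested genes between the interferon gamma receptor and CIITA, 8 rose and 1 was not called (median 0.98). Without library 28 also 8 of 9 were called higher, and with plain library sizes 7 of 9 (24% of all genes). Within routes 5 of 9 were called higher oral (29.2% of all genes) and 9 of 9 intraperitoneal (30.8%). Without library 28 the intraperitoneal count was 6 of 9 (30.5%). Irf1, the transcription factor, rose from 21.4 ± 3.86 to 77.9 ± 50.2 CPM and Socs1, a feedback inhibitor of the same receptor, from 12.9 ± 3.80 to 48.3 ± 8.35 CPM (SD, n = 8). The kinase Jak1 rose by 0.19 with TMM factors but changed by -0.020 with plain library sizes (adjusted p = 0.778). Library 28 held 1744 of the 4886 Irf1 counts of the IL-23 libraries. Ifng had 45 counts in all, 43 of them in IL-23 libraries and 29 in library 28, and was not tested.

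**Figure D5:**
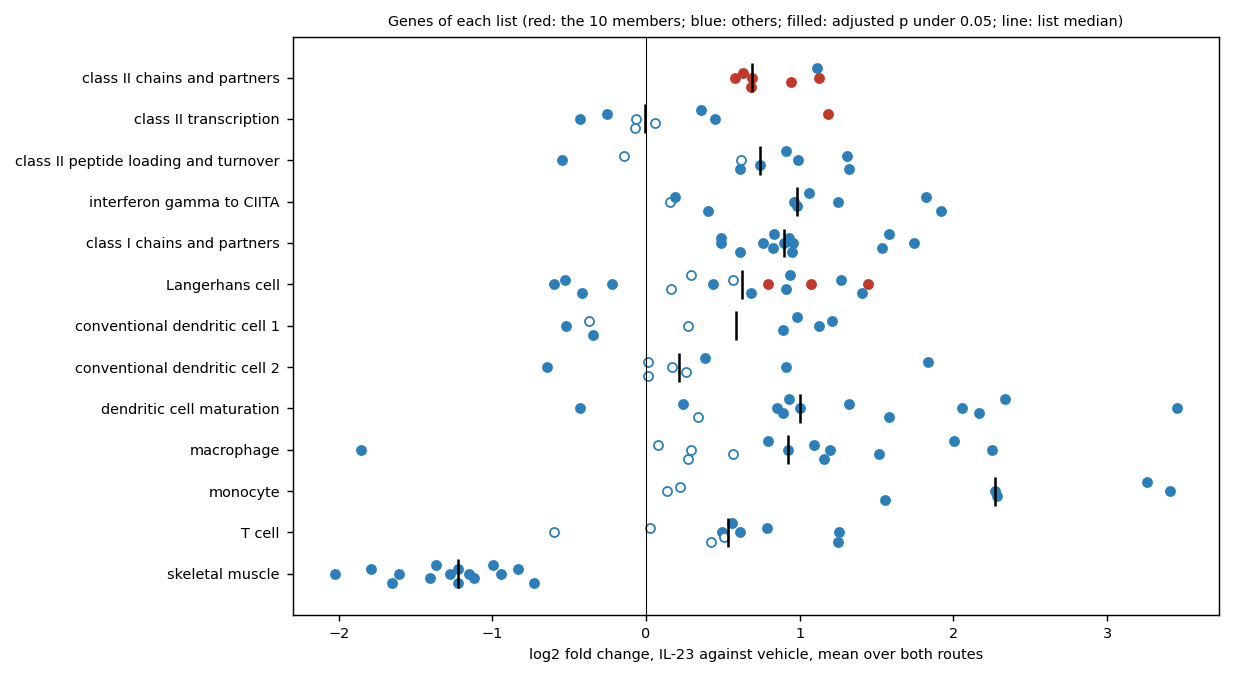
Log2 fold change of each tested gene (horizontal axis, IL-23 against vehicle, mean over both routes) in 13 of the gene lists (rows), with members in red, other genes in blue, filled symbols for an adjusted p under 0.05 and a line at each list's median. The 7 class II chain and partner genes all lie right of 0 with a median of 0.69, whereas the class II transcription list straddles 0 (median -0.0056) and the 15 skeletal muscle genes all lie left (median -1.23).

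Langerhans cell genes did not move as a block. Of 16 tested, 9 rose (Cd207, Epcam and Itgax among them), 4 fell and 3 were not called (median 0.62), and 13 of 16 called is near the 73.6% of all genes called over both routes (34.9% called higher). Spi1, encoding the myeloid factor PU.1, rose by 1.403 ± 0.242 (SE), Cd24a from 119 ± 6.76 to 286 ± 39.6 CPM, and Ly75 (DEC-205, an endocytic receptor) by 0.94 ± 0.20. The genes that fell were Id2 (-0.60) and Ahr (-0.53), transcription factors of Langerhans cells that other skin cells also express, Tgfbr2 (-0.42) and Il34 (-0.22), the keratinocyte cytokine that sustains them. Without library 28 the counts were 8 higher, 3 lower and 5 not called. With plain library sizes they were 7, 4 and 5.

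Markers of the other class II bearing cells were read in the same samples, beside the 73.6% of all genes called over both routes and the 34.9% called higher; the shares of type 1, type 2, macrophage and T cell genes called were near or below the former. For conventional dendritic cells of type 1, 4 of 8 rose and 2 fell (median 0.58, and 0.30 without library 28): Xcr1 went from 0.739 ± 0.206 to 1.78 ± 0.390 CPM and Wdfy4 from 4.26 ± 1.08 to 9.31 ± 3.58 CPM, while Cadm1 fell by 0.52. For type 2, 3 of 8 rose and 1 fell (median 0.21; 2 rose with plain library sizes); the defining Mgl2 stood at 19.96 and 19.86 CPM with vehicle and IL-23 and Cd209a at 8.72 and 9.82 CPM, neither called, whereas Itgam (1.83) and Sirpa (0.91), which other myeloid cells share, rose. Of 13 maturation genes 11 rose and 1 fell (median 1.003), with Ccl17 from 1.06 ± 1.14 to 9.48 ± 4.18 CPM, Cd80 from 0.410 ± 0.257 to 2.15 ± 0.642 CPM and the migration receptor Ccr7 by 2.17 ± 0.30. Of 13 macrophage genes 8 rose and 1 fell (median 0.92, and 0.64 without library 28), and of 7 monocyte genes 5 rose (median 2.27, and 1.17 without library 28). B cell genes were near 0: Pax5 had 0 counts, Ms4a1 2 and Cd79a 11 over the 16 libraries, 1 of 8 was tested, and the 8 summed to 1.19 to 2.84 CPM with vehicle and 2.03 to 8.998 CPM with IL-23. Of 10 tested T cell genes 6 rose (median 0.53), but 4 rose and 1 fell without library 28, and 3 rose and 1 fell with plain library sizes. With intraperitoneal dosing 7 of the 10 T cell genes were called with library 28, all higher, and 3 without it, 2 of them higher. Summed macrophage levels were 513 to 2008 CPM with IL-23 and 352 to 617 CPM with vehicle. Their part in the class II result was not tested.

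Markers of another leukocyte and of other tissue moved between the agents at the same time, beside 73.6% of all genes called over both routes (34.9% called higher). All 6 tested neutrophil genes rose (median 4.07, and 4.06 without library 28), with summed levels over the list of 29.0 to 125 CPM in vehicle and 19890 to 30442 CPM in IL-23 libraries. Most of that sum was S100a8 and S100a9, calprotectin subunits that activated keratinocytes also make, at 10284 ± 1655 and 13376 ± 1988 CPM with IL-23 (SD, n = 8). The chemokine receptor Cxcr2 rose from 1.25 ± 0.781 to 22.5 ± 5.89 CPM, and Ly6g, a defining neutrophil marker, had 15 counts over the 16 libraries and was not tested. Camp, also in the list and not tested, had 58 counts, 48 of them in vehicle and 10 in IL-23 libraries. The part of these cells in the rises of the 10 genes was not tested. All 15 skeletal muscle genes fell (median -1.23), with summed levels of 4437 to 9308 CPM in vehicle and 2022 to 3835 CPM in IL-23 libraries. Of 13 genes of hair follicle and sebaceous epithelium 7 fell and 3 rose (median -0.79), a share called near that of all genes. Before TMM scaling, levels are shares of each library, so a smaller share of one tissue raises the share of all others, and a larger share lowers it. With plain library sizes the median change of all genes was -0.26 oral and -0.23 intraperitoneal. How far the TMM factors offset such shifts was not tested, nor was the part of these shifts in the rises of the 10 genes.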

How the data were processed

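The TruSeq Stranded Total RNA Library Prep Kit and a HiSeq 2500 were used, per the labels' protocols. The submitters' processing notes name FastQC, STAR 2.52, featureCounts, Subread 1.5.0 and GRCm38. How strand was set, which annotation release was used and how multiply mapped reads were counted is not given in the sources used here. Raw read counts per gene were deposited by the authors, and no scaling by them shows in the values: whole numbers with totals that differ between the 16 libraries, from 6381990 to 14432930. The totals set the precision, which the spread between libraries limits further.

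From these counts, edgeR 4.0.16 in R 4.3.3 computed TMM factors, filtered genes with filterByExpr (minimum count 10, 14671 genes kept) and fitted a mean for each of the 4 groups (12 residual degrees of freedom). Contrasts were the IL-23 effect oral, intraperitoneal, as the mean over both, and their difference. Each test was 2-sided and adjusted by Benjamini-Hochberg over the genes tested. Standard errors were derived by dividing the size of the log2 fold change by the root of the F statistic. Within-library ratios used counts with 0.5 added. Correlations used log2(CPM + 0.25) and 100000 permutations of one gene's deviations. Positions and promoter sequences are from RefSeq GRCm38.p6, exon lengths from GENCODE M21. The script was tested on simulated counts.

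The members and the 17 lists (178 of 180 names found) were chosen with earlier results of these data known, and the lists support nothing on their own. Named genes are the members, Ptprc, Krt5 and Krt14, the 2 called genes with the largest change and the most abundant gene of each list, and the 5 genes most like H2-Ab1 and Cd207. Other genes of a list (such as Rfx5, Rfxank, Nfyb, Id2, Ahr, Tgfbr2, Il34, Ly75, March8, Mgl2, Cd209a and Ccr7) were named after their values were seen. Replicate numbers are unique to a library, so nothing was paired. Alternatives were RLE factors, plain library sizes, no count filter, a filter of 1 CPM in 4 libraries, DESeq2 1.42.0, limma-voom (limma 3.58.1), only the groups compared, a larger prior count for ratios, and leaving out each library.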

Additional observations from a re-analysis of the deposited data

Results flagged for a closer look

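In 96 groups of 4 libraries (members, reference genes and within-library ratios), 3 had a library whose gap to its nearest neighbour was too large a share of the group's range by Dixon's test at the 95% level. Chance flags about 1 group in 20, so 3 of 96 is no excess. H2-Eb1 in vehicle oral library 51 stood at 139 CPM, with the other 3 vehicle oral libraries at 83.6 to 91.4 CPM. Krt14 in the same library stood at 5429 CPM, with the others at 7741 to 8182 CPM. Ptprc in IL-23 intraperitoneal library 28 stood at 174 CPM, with the others of its group at 24.6 to 42.3 CPM.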

How the results depend on the processing

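No paired analysis was possible because no replicate number is shared between groups. Over both routes 10 of 10 members were called under every alternative run. With intraperitoneal dosing 5 members were called with plain library sizes and 4 to 9 when each library was left out (4 without library 28); with oral dosing 7 to 10 when each library was left out, and 7 with plain library sizes. H2-Aa intraperitoneal was also lost with limma-voom (adjusted p = 0.0564), with only the groups compared (0.0503) and without any of 9 libraries. H2-Ab1 and Cd74 intraperitoneal were also lost without vehicle library 49 or 67. For the difference between routes DESeq2 called 1 gene and no other tool any, and no member was called. No ratio passed with all libraries, and 0 to 2 of 33 did when each library was left out: H2-DMa over H2-Ab1 over both routes without IL-23 oral library 24 or vehicle intraperitoneal library 67 (adjusted p = 0.0404 for each), and Itgax over Cd207 without the latter (adjusted p = 0.0404). With plain library sizes Jak1 changed by -0.020 and F13a1 by -0.065 over both routes. The difference between routes for Cd74 was -0.0063 with limma-voom. When each library was left out, differences between routes changed sign for H2-Aa (-0.38 to 0.049), H2-Ab1 (-0.39 to 0.018), H2-Eb1 (-0.25 to 0.22), Cd74 (-0.29 to 0.24), H2-DMa (-0.23 to 0.30) and H2-DMb1 (-0.15 to 0.21). Log2 ratios that changed sign were H2-Eb1 over H2-Ab1 over both routes (-0.035 to 0.022), Cd74 over H2-Ab1 intraperitoneal (-0.084 to 0.060), Cd207 over H2-Ab1 intraperitoneal (-0.27 to 0.0094), Epcam over Cd207 oral (-0.061 to 0.16), Cd207 over Ptprc oral (-0.14 to 0.12), intraperitoneal (-0.99 to 0.080) and over both (-0.50 to 0.037), and H2-Ab1 over Ptprc intraperitoneal (-0.72 to 0.070). The cause of these changes was not tested.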

Other observations

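MHC class I genes, which present peptides from inside the cell, rose as well. All 13 genes of the class I list were called over both routes (median 0.90, and 0.71 without library 28, where 13 of 13 stayed called), 10 of 13 with oral and 13 of 13 with intraperitoneal dosing, and 11 of 13 over both routes with plain library sizes. Among all genes 73.6% were called over both routes and 34.9% called higher (24% higher with plain library sizes). Called higher were 29.2% of all genes oral and 30.8% intraperitoneal. Psmb8, an immunoproteasome subunit, rose from 20.6 ± 4.75 to 71.7 ± 61.0 CPM (SD, n = 8; log2 change 1.74 ± 0.29 SE, and 1.32 without library 28). Psmb9, another subunit, rose by 1.58 ± 0.24 and Pdia3, a chaperone of the loading complex, from 508 ± 23.5 to 901 ± 56.3 CPM. The summed class I level was 5823 CPM in library 28 and 2989 to 3849 CPM in the other 7 IL-23 libraries, against 1876 to 2297 CPM with vehicle.

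Mertk, a receptor for the uptake of dying cells that is listed with the macrophage genes, fell from 15.5 ± 2.54 to 4.29 ± 1.91 CPM (log2 change -1.86 ± 0.19 SE, adjusted p = 1.25e-07; SD, n = 8), while Fcgr1, an Fc receptor, rose by 2.25 (1.499 without library 28). It was named after its value was seen.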
